A study of Mus musculus with 16 samples.

Results

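The response of the liver to the AMLN diet was compared between mice with and without thrombospondin 1 (TSP1) in platelets, gene by gene, over the genes that the authors' tables of both genotypes hold. The tables list 2558 genes for TSP1F/F mice and 3399 genes for TSP1ΔPf4 mice, 5205 genes in all, and 752 genes are in both. Liver RNA came from 16 male C57BL6 mice, 4 in each of 4 groups, fed for 32 weeks. The groups were TSP1F/F mice on the LF (low fat) diet, TSP1F/F mice on the AMLN diet (rich in fat, sugars and cholesterol, a model of steatohepatitis), TSP1ΔPf4 mice on the LF diet and TSP1ΔPf4 mice on the AMLN diet. All mice, controls included, carried the floxed Tsp1 gene (Thbs1), and the TSP1F/F mice were littermates without Cre. In TSP1ΔPf4 mice the Pf4-Cre transgene, active in megakaryocytes and hence platelets, deletes the gene there. The paper names Gp1ba-Cre as a driver limited more strictly to the megakaryocyte lineage. Whether hepatocytes, macrophages and other cells keep the gene was not measured here. Thbs1 is not among the 752 genes, so it does not check the genotype labels here.

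Thrombospondin 1 is a matrix glycoprotein that platelets store in their granules and release when activated, and that many other cells also make. A liver fed an excess of fat, fructose and cholesterol fills with lipid, draws in monocytes that become macrophages, activates stellate cells that lay down collagen, and lowers many products of the healthy hepatocyte. Asking how the genotype changes this response means comparing differences. For each gene the log2 fold change from the LF to the AMLN diet was taken in TSP1F/F mice and in TSP1ΔPf4 mice, and the difference of responses is the second minus the first.

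Each table holds only genes that the authors' own test had placed at an unadjusted p-value under 0.05 for the diet in that genotype, and 0 genes lie above this value in either table. The 752 genes therefore had to differ between the diets in both genotypes, their diet responses are a description without a test, and a gene that responded in 1 genotype only is not analysed here. The paper states a stricter cut, an adjusted p under 0.05 and an absolute log fold change over 0.25. Whether the listed genes were chosen by that cut was not tested. A gene that passed in opposite directions had to have unequal responses, so the test of the difference is not independent of that selection for such genes. Expression is given as CPM, the count of a gene per 1000000 counts of its library total, and errors are SD over 4 mice. The median library total by group ran from 18838184 to 27661650, with larger libraries on the AMLN diet. The hepatocyte markers Ttr, Serpina1c, G6pc and Asgr1 were present in every library, with summed levels of 2850 to 9160 CPM. The spread between mice was larger in TSP1F/F than in TSP1ΔPf4 mice, with a common dispersion of 0.302 against 0.153 over the genes tested. TSP1ΔPf4 LF replicate 3 stood apart for the summed level of the mitochondrially encoded genes in both tables, and AMLN-fed TSP1F/F replicates 3 and 4 for several genes below.

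Of the 752 genes, 734 had enough counts to be tested and 18 did not. The AMLN diet raised 464 genes in both genotypes, lowered 223 in both and moved 47 (6.40%) in opposite directions. Among the genes raised in both, 336 (72.4%) rose less in TSP1ΔPf4 mice, 85 rose equally, taken as responses within 0.25 log2 of each other, and 43 rose more. Their median response was 1.98 log2 in TSP1F/F and 1.27 log2 in TSP1ΔPf4 mice. Among the genes lowered in both, 87 (39.0%) fell less in TSP1ΔPf4 mice, 110 (49.3%) fell equally and 26 fell more, with median responses of -0.93 and -0.76 log2. Which of these 2 groups held the smaller responses depended on the scaling. With TMM factors 216 of 458 raised genes (47.2%) and 175 of 223 lowered genes (78.5%) had the smaller response in TSP1ΔPf4 mice, and with RLE factors 229 of 455 (50.3%) and 169 of 223 (75.8%). The fixed margin of 0.25 log2 also places the smaller responses of lowered genes among the equal ones more easily.

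The sizes of these responses move with how the genes were listed. Genes found in the TSP1F/F table alone had a median absolute response of 1.24 log2 and those in the TSP1ΔPf4 table alone 0.79 log2, in a genotype with less spread between mice. The part of this in the count of smaller responses was not tested. Over all 734 genes the median difference of responses was -0.34 log2 on library totals and -0.33 log2 on the authors' size factors. It was 0.05 log2 with TMM factors and 0.01 log2 with RLE factors, both of which take the middle of these selected genes as unchanged. The differences of single genes below are to be read against that shift.

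**Figure D1:**
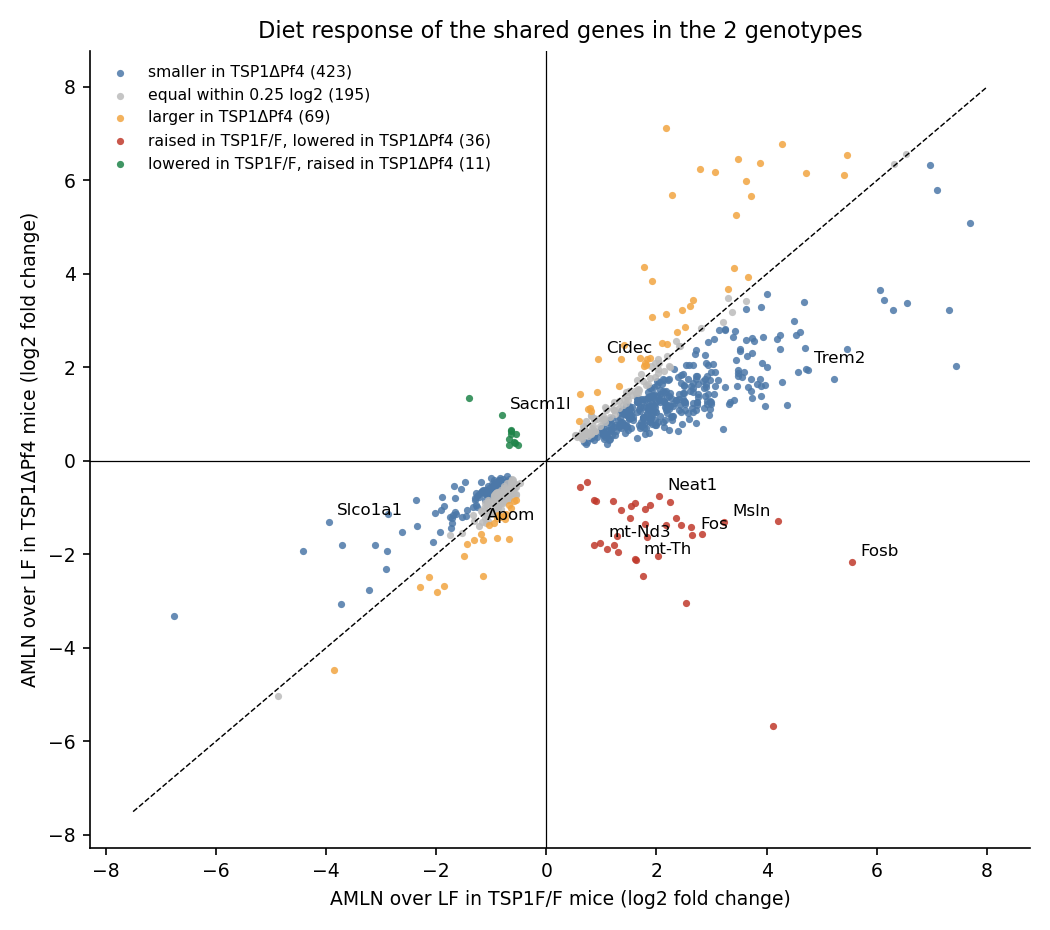
Each point is 1 of the 734 genes tested, placed by its log2 fold change from the LF to the AMLN diet in TSP1F/F mice (horizontal axis) and in TSP1ΔPf4 mice (vertical axis), and coloured by class, with equal responses on the dashed line. On library totals 336 of the 464 raised genes lie below the line by over 0.25 log2, 36 genes lie at the lower right and 11 at the upper left. Folds of genes with 0 counts in a group depend on the prior count of the fit.

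The difference of responses was called for 3 of the 734 genes (0.409%) by the quasi-likelihood test of edgeR at a Benjamini-Hochberg adjusted p under 0.05. Adjusted p-values below are from this test. These were mt-Nd3, Neat1 and mt-Th, all higher on the AMLN diet in TSP1F/F mice and lower in TSP1ΔPf4 mice. At an unadjusted p under 0.05 the number was 110 (15.0%), 94 below 0 (12.8%) and 16 above (2.18%). At an adjusted p under 0.1 it was 53 (7.22%), and 22 of these had an adjusted p between 0.05 and 0.06. The 110 held all 47 opposite genes, whose selection favours a small p. The rest were 63 of the 687 genes moved the same way (9.17%). On library totals 492 differences (67.0%) lay below 0, against 486 with the authors' size factors, 345 with TMM, 362 with RLE and 364 with DESeq2. DESeq2 called 44 genes, and limma with weights for each group's spread called 0, with 109 at an unadjusted p under 0.05. The 3 calls were also lost when AMLN-fed TSP1F/F replicate 4, LF-fed TSP1ΔPf4 replicate 3 or 4, or AMLN-fed TSP1ΔPf4 replicate 1, 2 or 3 was left out (0 genes called each). Leaving out AMLN-fed TSP1F/F replicate 2 gave 24 calls, LF-fed TSP1ΔPf4 replicate 1 gave 13, LF-fed TSP1F/F replicate 2 gave 12, AMLN-fed TSP1F/F replicate 1 gave 6, LF-fed TSP1F/F replicates 3 and 4 gave 5 each, and the other 4 gave 2 to 4. All 47 opposite genes stayed opposite with each mouse left out in turn, which their selection on these same mice favours.

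The most uniform group of opposite genes was encoded by the mitochondrial genome. Mitochondria transcribe both strands of their small circular genome as long precursors, from which transfer RNAs (tRNAs) are cut out between the messenger RNAs, and the tRNAs then serve protein synthesis inside the organelle. All 7 mitochondrially encoded genes in both tables were tested, and all 7 were higher on the AMLN diet in TSP1F/F livers and lower in TSP1ΔPf4 livers. They are mt-Nd3, which encodes a subunit of respiratory complex I, and tRNAs for 6 amino acids. The tRNA sequences are shown because their length and neighbours bear on what the counts measure. They are taken from GENCODE M21 transcripts (mm10, forward strand of the mitochondrial chromosome), with the anticodon in capitals.
mt-Tw (tryptophan; positions 4950 to 5016): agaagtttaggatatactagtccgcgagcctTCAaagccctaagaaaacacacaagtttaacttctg
mt-Tg (glycine; 9391 to 9458): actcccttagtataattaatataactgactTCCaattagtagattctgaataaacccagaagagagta
mt-Tr (arginine; 9808 to 9875): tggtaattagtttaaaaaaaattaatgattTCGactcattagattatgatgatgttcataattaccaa
mt-Th (histidine; 11546 to 11612): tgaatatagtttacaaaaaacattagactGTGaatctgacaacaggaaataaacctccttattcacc
mt-Ts2 (serine; 11613 to 11671): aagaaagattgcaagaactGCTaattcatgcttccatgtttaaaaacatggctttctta
mt-Tl2 (leucine; 11671 to 11741): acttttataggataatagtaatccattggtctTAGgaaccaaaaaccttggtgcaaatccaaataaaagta

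These tRNAs are 59 to 71 bases long, shorter than the 150-base reads. The gene mt-Nd3 (positions 9459 to 9806) lies directly between mt-Tg and mt-Tr, and mt-Th, mt-Ts2 and mt-Tl2 follow each other without a gap. A read can therefore span neighbours, and the 7 genes are not 7 independent measurements. Counts of mature tRNA and of uncut precursor cannot be told apart.

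In LF-fed TSP1F/F mice mt-Nd3 stood at 69.2, 51.8, 41.9 and 59.2 CPM, and in AMLN-fed TSP1F/F mice at 90.5, 167, 70.1 and 111 CPM. In LF-fed TSP1ΔPf4 mice it stood at 48.9, 51.1, 172 and 57.5 CPM, and in AMLN-fed TSP1ΔPf4 mice at 16.6, 25.6, 25.4 and 29.8 CPM. The diets did not overlap in either genotype, in opposite order, and replicate 3 was far above the other LF-fed TSP1ΔPf4 mice. The difference of responses was -2.74 log2 (standard error 0.54, 95% interval -3.89 to -1.60, edgeR quasi-likelihood adjusted p = 0.0455). Without that replicate it was -2.09 log2 and was no longer called.

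The histidine tRNA mt-Th had 10.1, 2.79, 3.31 and 10.7 CPM in LF-fed and 15.3, 33.8, 16.2 and 17.3 CPM in AMLN-fed TSP1F/F mice. In TSP1ΔPf4 mice it had 4.46, 7.49, 26.6 and 7.32 CPM on the LF diet and 1.64, 2.55, 1.95 and 4.44 CPM on the AMLN diet. The diets again did not overlap in either genotype, with the order turned round, although 4.44 and 4.46 CPM nearly met. Its difference of responses was -3.74 log2 (standard error 0.80, edgeR quasi-likelihood adjusted p = 0.0495) and -2.90 log2 without LF-fed TSP1ΔPf4 replicate 3, where it was not called. The other 5 tRNAs had differences of -2.82 (mt-Tw), -2.88 (mt-Tl2), -2.97 (mt-Tg), -3.03 (mt-Ts2) and -3.25 log2 (mt-Tr), with adjusted p-values of 0.0558 to 0.0736, and were not called by edgeR, while DESeq2 called all 5 and the fit without LF-fed TSP1ΔPf4 replicate 1 called the 5 except mt-Tw.

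The summed level of the 7 genes was 69.1 to 138 CPM in LF-fed and 138 to 327 CPM in AMLN-fed TSP1F/F mice. In TSP1ΔPf4 mice it was 83.7, 92.8, 289 and 88.3 CPM on the LF diet and 23.7 to 52.2 CPM on the AMLN diet. On the LF diet the genotypes overlapped, and on the AMLN diet every TSP1ΔPf4 mouse lay below every TSP1F/F mouse. Beyond these 7, the TSP1F/F table lists 2 further mitochondrially encoded genes and 19 others are in the TSP1ΔPf4 table alone, each measured in 1 genotype only. With the shared genes included, all 9 of the TSP1F/F table had a higher mean on the AMLN diet and all 26 of the TSP1ΔPf4 table a lower one, by -0.72 to -3.26 log2 of the mean CPM. All 26 were still lower without LF-fed TSP1ΔPf4 replicate 3, the highest LF-fed mouse in 12 of them, while replicate 1 was highest in 14. In contrast, the 7 nuclear genes of the respiratory chain in both tables were lowered by the diet in both genotypes. The fall was equal in 6 of them, and smaller in TSP1ΔPf4 mice for Uqcrfs1. These 7 were selected to respond in both genotypes, while 11 such genes are listed for TSP1F/F mice and 69 for TSP1ΔPf4 mice. The contrast covers the 7 only, since the rest were measured in a single genotype. Ndufa8, Ndufb10, Ndufb3, Ndufs7, Sdhd, Uqcrb and Uqcrfs1 had differences of responses of -0.12 to 0.27 log2 on library totals, and above 0 in all 7 with TMM, RLE and DESeq2 factors. Their responses ran from -0.64 to -0.83 log2 in TSP1F/F and from -0.47 to -0.83 log2 in TSP1ΔPf4 mice.

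Neat1 (ENSMUSG00000092274; chromosome 19, 5824708 to 5845478, reverse strand, mm10) makes the long noncoding RNA that scaffolds nuclear paraspeckles. It had 64.3, 28.2, 19.8 and 58.8 CPM in LF-fed and 222, 196, 134 and 158 CPM in AMLN-fed TSP1F/F mice. In TSP1ΔPf4 mice it had 43.1, 31.5, 89.9 and 53.9 CPM on the LF diet and 40.1, 15.5, 28.9 and 44.5 CPM on the AMLN diet. The AMLN-fed TSP1F/F mice stood above all 12 other mice, while the diets overlapped in TSP1ΔPf4 mice. The means were 42.8 ± 22.1, 178 ± 39.3, 54.6 ± 25.2 and 32.2 ± 13.0 CPM (SD, n = 4 mice each, in that order). Its responses of 2.05 and -0.76 log2 differed by -2.81 log2 (standard error 0.58, 95% interval -4.03 to -1.60, edgeR quasi-likelihood adjusted p = 0.0455). With TMM factors the difference was -2.33 log2 and was not called (adjusted p = 0.0607).

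Fos and Fosb encode subunits of the AP-1 transcription factor and belong to the immediate early genes, which cells switch on within minutes of a stimulus and soon switch off. The 250 bases before their transcription starts are shown because these genes moved together and the region is known to bind signal-driven factors. The sequences are from RefSeq (GRCm38.p6), read in the direction of the gene. Capitals mark TGACG, the core letters of a cyclic AMP response element, searched on both strands.
Fos, chr12:85473640-85473889, forward strand: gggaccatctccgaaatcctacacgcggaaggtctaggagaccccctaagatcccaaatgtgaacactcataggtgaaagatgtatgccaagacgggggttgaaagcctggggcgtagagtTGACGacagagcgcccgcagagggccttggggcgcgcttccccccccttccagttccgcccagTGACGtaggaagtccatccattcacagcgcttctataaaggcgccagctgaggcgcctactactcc
Fosb, chr7:19310046-19310295, reverse strand: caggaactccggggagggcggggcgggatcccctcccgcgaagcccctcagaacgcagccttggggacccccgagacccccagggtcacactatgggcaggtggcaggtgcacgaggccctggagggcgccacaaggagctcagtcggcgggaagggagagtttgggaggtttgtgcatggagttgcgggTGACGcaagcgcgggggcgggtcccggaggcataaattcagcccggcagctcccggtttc

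The letters start 129 and 66 bases before the start of Fos and 60 bases before that of Fosb, and 17.8% of all 32851 RefSeq promoters hold them in a window of this length. The match is a description of the letters only. Fos had 0.992, 7.08, 3.92 and 2.29 CPM in LF-fed and 5.05, 9.56, 56.2 and 18.6 CPM in AMLN-fed TSP1F/F mice. The level was 9.19, 18.3, 9.34 and 4.35 CPM in LF-fed and 2.10, 4.44, 1.88 and 5.25 CPM in AMLN-fed TSP1ΔPf4 mice. The diets overlapped in both genotypes, and 1 mouse held the highest value by far. The difference of responses was -4.24 log2 (standard error 0.98), just short of a call at an edgeR quasi-likelihood adjusted p of 0.0501, and -3.23 log2 without AMLN-fed TSP1F/F replicate 3.

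Fosb had 0, 0.750, 0 and 0 CPM in LF-fed and 0.998, 0.808, 27.0 and 5.99 CPM in AMLN-fed TSP1F/F mice. It stood at 1.06, 3.33, 0.350 and 0.849 CPM in LF-fed and 0.133, 0.123, 0.351 and 0.646 CPM in AMLN-fed TSP1ΔPf4 mice. All AMLN-fed TSP1F/F mice lay above their LF-fed counterparts, and the highest was again replicate 3. Its difference of responses was -7.72 log2 (standard error 1.82, the same adjusted p of 0.0501) and -5.95 log2 without that mouse. Without LF-fed TSP1F/F replicate 2, the only LF-fed TSP1F/F mouse with Fosb counts, the fit gave -12.88 log2, so the size of the fold rests on few counts. The other 2 immediate early genes in both tables, Fosl2 and Klf6, rose in both genotypes and less in TSP1ΔPf4 mice, with differences of -0.68 and -1.55 log2.

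**Figure D2:**
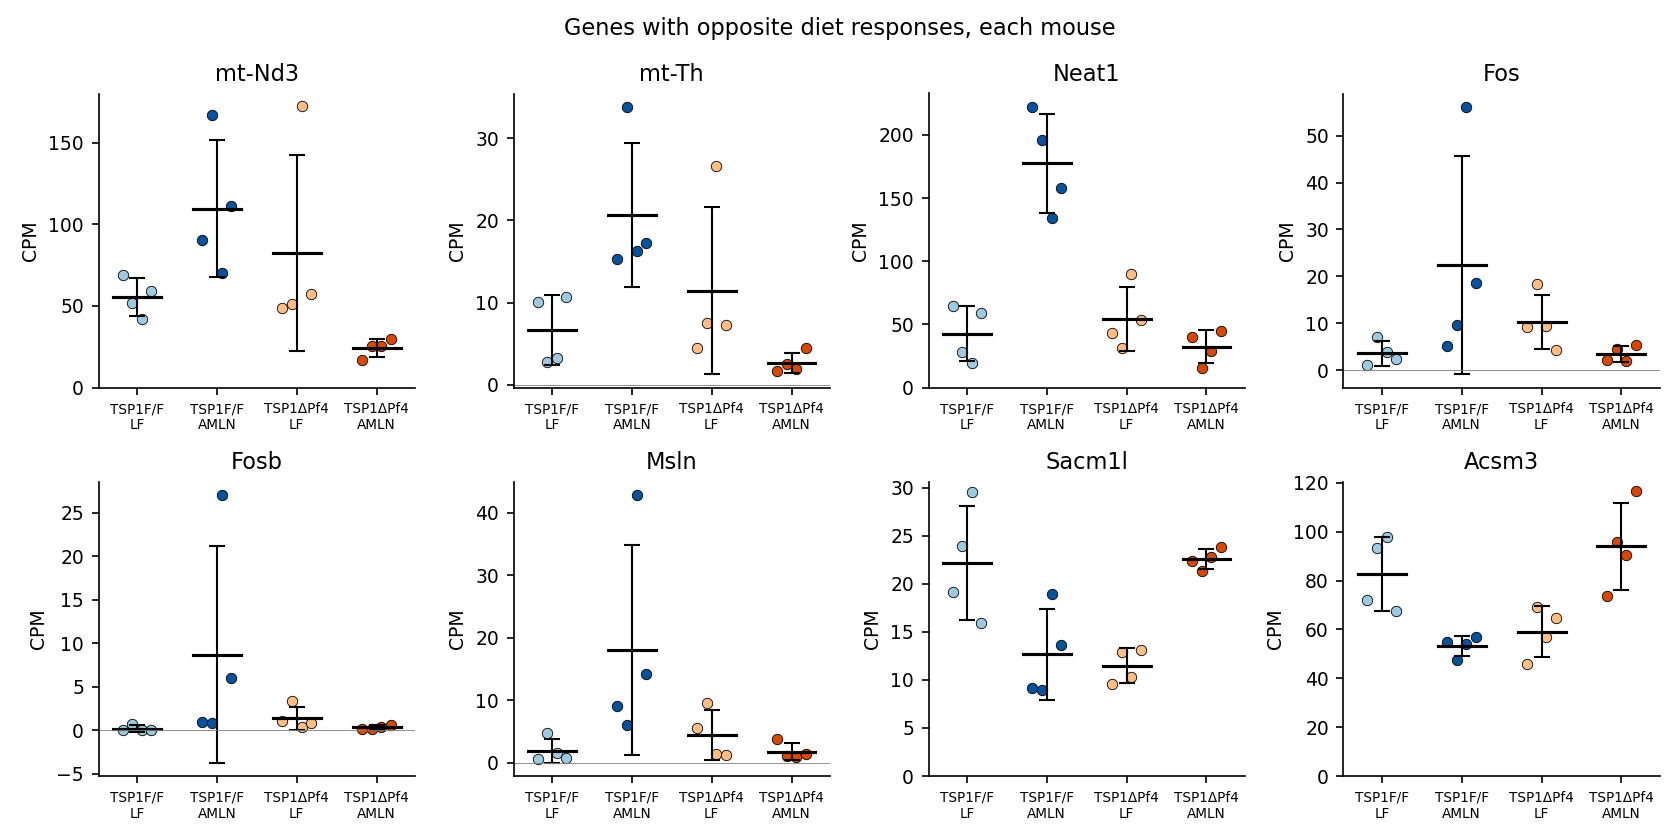
CPM of 8 genes with opposite diet responses in each mouse (points), with the mean (line) and SD (bars) of 4 mice in each group, on a linear axis that differs between panels. mt-Nd3, mt-Th, Neat1, Fos, Fosb and Msln are highest in AMLN-fed TSP1F/F mice on average, while Sacm1l and Acsm3 are lowest there or in LF-fed TSP1ΔPf4 mice.

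Across the 47 opposite genes the diets did not overlap in 18 in TSP1F/F mice, in 23 in TSP1ΔPf4 mice and in 9 in both, against 52.9%, 56.8% and 35.1% of all genes tested. Of the 47, 36 were raised in TSP1F/F and lowered in TSP1ΔPf4 mice. Their median responses were 1.78 and -1.36 log2 and their median level over all mice was 5.70 CPM, against 9.21 CPM over all genes tested. Of the 36, 28 were protein coding, and the other 8 were the 6 tRNAs, Neat1 and 2410006H16Rik. Besides the genes above, the smallest p-values of the difference were those of Cib3, Msln, Gpm6a, Cxcl5 and Iqcg, none of them called by edgeR on library totals. DESeq2 called all 5, and Cib3, Msln and Cxcl5 were called with TMM factors. Hba-a2, an alpha globin gene of red blood cells, and Myl7, an atrial myosin light chain, were the only genes of the red blood cell and striated muscle marker lists in both tables, at group means of 1.40 to 6.34 and 0.124 to 2.07 CPM. Their part in the other opposite genes was not tested.

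Msln encodes mesothelin, a surface protein of the mesothelium that lines organs. It had 0.678, 4.72, 1.60 and 0.713 CPM in LF-fed and 9.14, 6.06, 42.8 and 14.2 CPM in AMLN-fed TSP1F/F mice. In TSP1ΔPf4 mice it had 5.58, 9.61, 1.40 and 1.22 CPM on the LF diet and 3.74, 1.11, 0.925 and 1.38 CPM on the AMLN diet. Replicate 3 of the AMLN-fed TSP1F/F mice was again the highest, and the diets overlapped in TSP1ΔPf4 mice. The difference of responses was -4.55 log2 (standard error 1.13, edgeR quasi-likelihood adjusted p = 0.0537) and -3.66 log2 without that mouse. Upk1b and Upk3b, which encode uroplakins, and Bnc1, which encodes the zinc finger protein basonuclin 1, had differences of -4.22, -3.81 and -5.56 log2 and were not called by edgeR, while DESeq2 called Upk1b and Upk3b.

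Gpm6a encodes a membrane glycoprotein best known from neurons. It had 4.59, 6.49, 1.38 and 2.55 CPM in LF-fed and 9.68, 5.48, 29.8 and 26.4 CPM in AMLN-fed TSP1F/F mice, with 1.72 to 6.16 CPM in the 8 TSP1ΔPf4 mice. Cib3, a calcium and integrin binding protein gene, had 1.15, 1.66, 3.69 and 1.16 CPM in LF-fed and 4.02, 3.46, 10.5 and 29.7 CPM in AMLN-fed TSP1F/F mice, with 0.215 to 2.07 CPM in the TSP1ΔPf4 mice. In AMLN-fed mice both genes were higher in every TSP1F/F mouse than in any TSP1ΔPf4 mouse. Their differences of responses were -3.13 and -4.06 log2, with adjusted p-values of 0.0537 and 0.0501. Iqcg, an IQ-motif protein gene, differed by -3.45 log2.

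Cxcl5 encodes a chemokine that attracts neutrophils. It had 0, 0, 0.221 and 0 CPM in LF-fed and 0.666, 0.404, 1.11 and 1.74 CPM in AMLN-fed TSP1F/F mice. In TSP1ΔPf4 mice it had 0.372, 0, 0.701 and 0 CPM on the LF diet and 0 counts in all 4 mice on the AMLN diet. Measured against a floor of 3 counts in the smallest library of that group, the AMLN-fed TSP1F/F mice stood at least 7.58-fold higher. The LF-fed TSP1ΔPf4 mice stood at least 2.08-fold higher, a fall that rests on 2 mice, since the other 2 also had 0 counts.

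The opposite direction was found for 11 genes, lowered in TSP1F/F and raised in TSP1ΔPf4 mice. The changes were smaller, with median responses of -0.64 and 0.57 log2, in genes of higher level (median 34.9 CPM). Sacm1l, a phosphoinositide phosphatase of the endoplasmic reticulum, had 19.1, 24.0, 29.5 and 15.9 CPM in LF-fed and 9.11, 8.98, 18.9 and 13.6 CPM in AMLN-fed TSP1F/F mice. The values were 9.61, 12.9, 10.3 and 13.2 CPM in LF-fed and 22.4, 21.3, 22.7 and 23.9 CPM in AMLN-fed TSP1ΔPf4 mice. The genotypes did not overlap on either diet, with TSP1ΔPf4 mice lower on LF and higher on AMLN, and the diets overlapped in TSP1F/F mice only. The difference of responses was 1.78 log2 (standard error 0.40, edgeR quasi-likelihood adjusted p = 0.0501).

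Acsm3, a mitochondrial medium-chain acyl-CoA synthetase, fell from 82.7 ± 15.2 to 53.3 ± 4.06 CPM on average in TSP1F/F mice and stood at 59.2 ± 10.3 and 94.1 ± 17.8 CPM in TSP1ΔPf4 mice (SD, n = 4 mice each). Glyctk, glycerate kinase, which acts in the breakdown of fructose and serine, stood at 86.3 ± 7.06 and 58.5 ± 4.53 CPM in TSP1F/F and at 81.7 ± 9.18 and 123 ± 20.4 CPM in TSP1ΔPf4 mice. Psmd1, a regulatory subunit of the proteasome, stood at 79.8 ± 9.84 and 51.2 ± 10.1 CPM against 60.9 ± 14.5 and 90.5 ± 8.19 CPM. In these 3 genes the diets did not overlap in either genotype. Their differences of responses were 1.30, 1.15 and 1.21 log2, with adjusted p-values of 0.0501, 0.0537 and 0.0558, and none was called by edgeR on library totals, while all 3 were called with TMM and RLE factors and by DESeq2. Oxsm, of mitochondrial fatty acid synthesis, differed by 1.00 log2, and the pseudogene Gm4202, whose reads may belong to a parent gene, by 2.75 log2. The other 5 genes, Ttc9c, Fbxo9, Gabpa, Mtap and Fbxo31, differed by 0.86 to 1.28 log2.

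A difference of responses can arise in LF-fed or in AMLN-fed mice. The genotypes were therefore compared on each diet, on counts scaled to library totals, although the authors processed the genotypes in separate tables and a constant between tables would not cancel here as it does in the difference of responses. On the LF diet 0 of 734 genes were called, with 73 (9.95%) at an unadjusted p under 0.05, and DESeq2 called 4. The genotypes did not overlap in 34 genes (4.63%). On the AMLN diet 54 genes (7.36%) were called, 47 lower (6.40%) and 7 higher (0.954%) in TSP1ΔPf4 mice. At an unadjusted p under 0.05 there were 147 (20.0%), and the genotypes did not overlap in 110 (15.0%), TSP1ΔPf4 mice being below in 91 (12.4%). These 54 held 27 of the 36 genes raised in TSP1F/F and lowered in TSP1ΔPf4 mice, 4 of the 11 with the reverse pattern, 23 genes with a smaller response and 0 with an equal or larger one. The AMLN genotype difference is a part of the difference of responses on which the classes are cut. This split therefore follows in part from the cut. The count of 54 fell to 30, 15, 24 and 26 without AMLN-fed TSP1ΔPf4 replicate 1, 2, 3 or 4, and to 30 and 23 without AMLN-fed TSP1F/F replicate 3 or 4.

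All AMLN-fed TSP1ΔPf4 mice lay below all AMLN-fed TSP1F/F mice in 24 of the 36 genes, against 12.4% of all genes tested. The cut of the classes favours this and the directions that follow. All 36 genes raised in TSP1F/F and lowered in TSP1ΔPf4 mice were lower in TSP1ΔPf4 than in TSP1F/F mice on the AMLN diet, by a median of -2.50 log2, and 31 were higher on the LF diet, by a median of 0.66 log2 over the 36. Neat1 differed by 0.35 log2 on LF and -2.46 log2 on AMLN, and mt-Nd3 by 0.57 and -2.17 log2. Among the 11 reverse genes, all 11 were higher in TSP1ΔPf4 mice on AMLN and 10 were lower on LF, with medians of 0.64 and -0.48 log2. Fbxo31, an F-box protein, was the exception and was higher on both diets, by 0.58 and 1.53 log2.

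**Figure D3:**
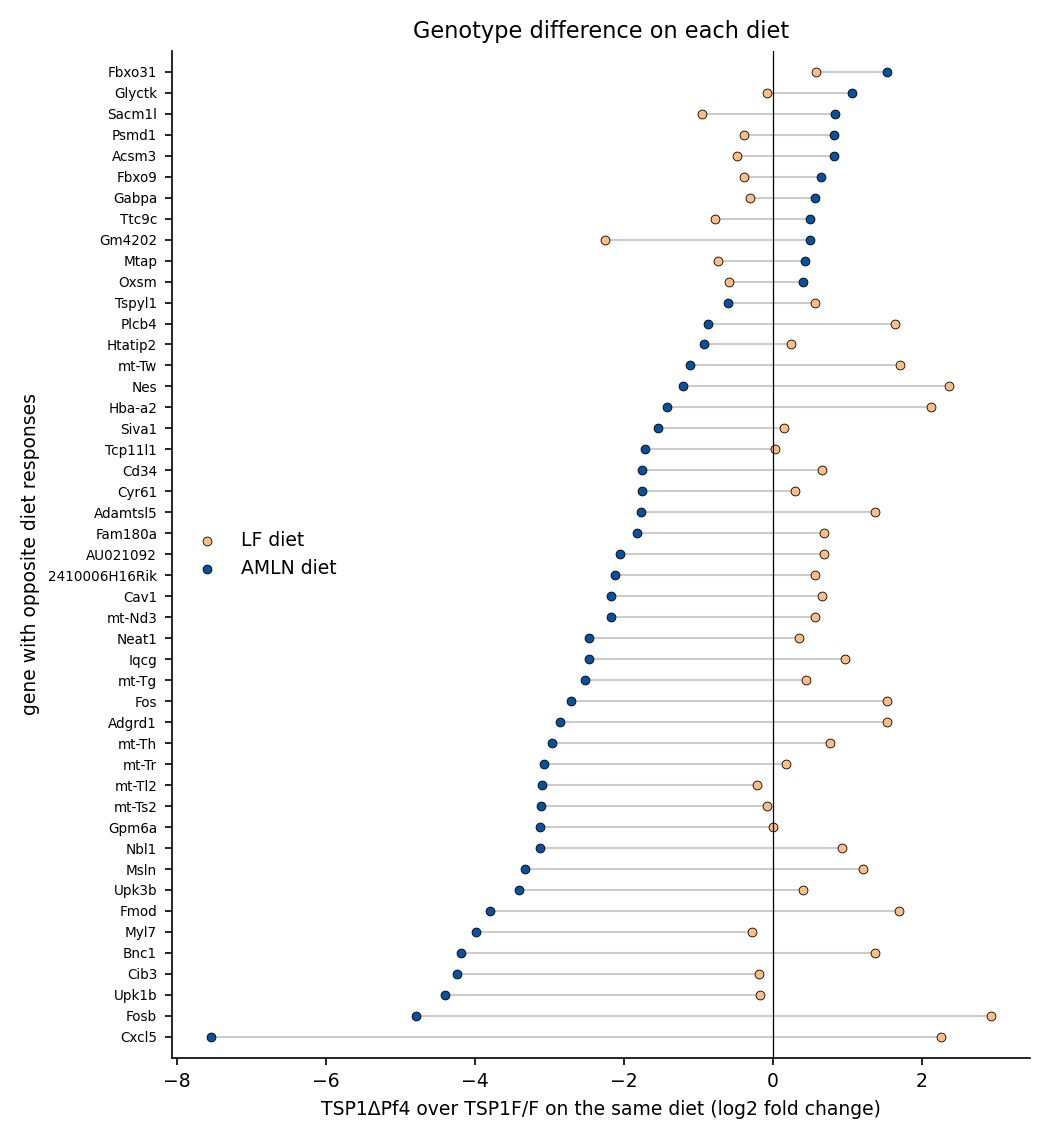
Each row is 1 of the 47 genes with opposite diet responses, and its joined points give the log2 fold change of TSP1ΔPf4 over TSP1F/F mice on the LF and on the AMLN diet. The AMLN points reach farther from 0 than the LF points in 32 of the 36 genes raised in TSP1F/F mice and in 6 of the 11 others. The AMLN point of Cxcl5 rests on 0 counts in 4 mice and is not a measured fold.

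Genes moved the same way in both genotypes comprised 423 (57.6% of all genes tested) with a smaller, 195 (26.6%) with an equal and 69 (9.40%) with a larger response in TSP1ΔPf4 mice, classes that are cut on the difference itself. None of these 687 was called by edgeR on library totals, while DESeq2 called Axl, Trem2, Lgals3, Rac2 and Slco1a1 among them. TMM and RLE factors gave Slco1a1. The DESeq2 adjusted p-values of Axl, Lgals3 and Rac2 lay only just under 0.05. With TMM factors, RLE factors or the replicate block, edgeR called none of Axl, Trem2, Lgals3 and Rac2. Their quasi-likelihood adjusted p-values there were 0.108 to 0.335. The list of monocyte-derived macrophage markers, which also holds genes of macrophages in general such as Cd68 and Adgre1, had the largest median shift. This ranks the lists in which every tested gene moved the same way and 5 or more were tested. Of 16 markers, 11 are in both tables, all 11 were raised by the diet in both genotypes and 10 rose less in TSP1ΔPf4 mice. Their median response was 3.41 log2 in TSP1F/F and 1.74 log2 in TSP1ΔPf4 mice, and the median difference was -2.11 log2 against -0.34 log2 over all genes tested. Of the 11, 6 had an unadjusted p under 0.05, against 15.0% of all genes and 9.17% of those moved the same way. On the AMLN diet alone the genotype difference was called in 6 of the 11, against 7.36% of all genes, with a median of -1.695 log2. On the LF diet it was called in 0, with a median of -0.11 log2. In such bulk samples, fewer cells of a type and less RNA per cell cannot be told apart. Of 10 markers of Kupffer cells, the resident macrophages, 3 were tested (Cd163, Cd5l and Vsig4), 2 raised and 1 lowered in both genotypes. All 3 responded less in TSP1ΔPf4 mice, with a median difference of -0.28 log2 and 0 at an unadjusted p under 0.05. Which macrophages the shift came from was not tested.

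Trem2 encodes a lipid-sensing receptor of macrophages. It had 1.36, 1.45, 0.607 and 1.01 CPM in LF-fed and 19.7, 13.4, 15.4 and 67.6 CPM in AMLN-fed TSP1F/F mice. The level was 0.372, 0.918, 0.993 and 1.27 CPM in LF-fed and 3.17, 2.38, 4.97 and 3.32 CPM in AMLN-fed TSP1ΔPf4 mice. The diets were apart in both genotypes, and every AMLN-fed TSP1F/F mouse was above every AMLN-fed TSP1ΔPf4 mouse. The responses differed by -2.75 log2 (standard error 0.73, edgeR quasi-likelihood adjusted p = 0.0558) and -1.91 log2 without AMLN-fed TSP1F/F replicate 4, the mouse at 67.6 CPM.

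Lgals3, which encodes the lectin galectin 3, rose on average from 3.27 ± 1.17 to 34.9 ± 17.8 CPM in TSP1F/F and from 4.37 ± 2.31 to 10.8 ± 1.86 CPM in TSP1ΔPf4 mice (SD, n = 4 mice each), a difference of responses of -2.11 log2. Gpnmb, Mmp12 and Clec7a, a glycoprotein, an elastase and a fungal glucan receptor of macrophages, differed by -2.61, -2.69 and -2.34 log2. Cx3cr1, the fractalkine receptor, was the exception at 0.36 log2. The summed level of the 11 markers was 51.6 to 437 CPM in LF-fed and 460 to 2440 CPM in AMLN-fed TSP1F/F mice, while TSP1ΔPf4 mice had 49.5 to 126 and 150 to 256 CPM.

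In a few of the genes named here the LF-fed genotypes did not overlap, although 0 of 734 genes were called on LF and 34 (4.63%) did not overlap. Axl, a receptor kinase for the clearance of dying cells, had 4.91, 3.22, 3.97 and 5.48 CPM in LF-fed TSP1F/F mice and 8.82, 9.71, 7.71 and 9.92 CPM in LF-fed TSP1ΔPf4 mice. On the AMLN diet it had 28.8, 21.2, 41.7 and 18.8 CPM in TSP1F/F and 14.5, 22.7, 20.7 and 21.0 CPM in TSP1ΔPf4 mice. The genotypes were apart on LF, with TSP1ΔPf4 mice higher, and overlapped on AMLN. The difference of responses of -1.53 log2 (standard error 0.40, edgeR quasi-likelihood adjusted p = 0.0558) was thus made of 1.04 log2 on LF and -0.49 log2 on AMLN. Rac2, a small GTPase of blood cells, and Cybb, the catalytic subunit of the phagocyte oxidase, had the same arrangement, with TSP1ΔPf4 mice above all TSP1F/F mice on LF, by 1.40 and 0.76 log2.

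All 8 genes of antigen presentation by major histocompatibility complex (MHC) class II in both tables rose in both genotypes and less in TSP1ΔPf4 mice. The median difference was -1.12 log2, while 72.4% of all raised genes rose less. Of the 8, 3 (Cd74, H2-DMb1 and H2-Eb1) had an unadjusted p under 0.05, against 15.0% of all genes and 9.17% of those moved the same way. Cd74, the invariant chain, stood at 27.7 ± 9.70 and 204 ± 97.0 CPM in TSP1F/F and at 49.7 ± 10.1 and 168 ± 41.7 CPM in TSP1ΔPf4 mice (SD, n = 4 mice each, LF then AMLN), a difference of -1.13 log2. H2-Aa and H2-Ab1, the chains of I-A, differed by -1.13 and -1.11 log2, and H2-DMa by only -0.50 log2. On the AMLN diet alone the genotype difference was called in 0 of the 8, with a median of -0.87 log2.

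All 7 collagen genes in both tables likewise rose in both genotypes and less in TSP1ΔPf4 mice, beside 72.4% of all raised genes. The median difference was -1.02 log2. Of the 7, 2 had an unadjusted p under 0.05, against 15.0% of all genes and 9.17% of those moved the same way. The median genotype difference was 0.65 log2 on the LF diet and -0.14 log2 on the AMLN diet, where 1 of the 7 was called. Col3a1, of fibrillar type III collagen, had 9.92, 20.6, 15.1 and 7.13 CPM in LF-fed and 55.9, 66.9, 116 and 146 CPM in AMLN-fed TSP1F/F mice. It stood at 16.8, 10.9, 15.5 and 9.65 CPM in LF-fed and 30.2, 28.3, 42.6 and 15.4 CPM in AMLN-fed TSP1ΔPf4 mice. On the AMLN diet the genotypes were apart, and in TSP1ΔPf4 mice the diets overlapped. Its responses thus differed by -1.73 log2 (standard error 0.54, edgeR quasi-likelihood adjusted p = 0.0825). Col1a1, the type I chain, differed by -0.63 log2 (95% interval -3.30 to 2.05), with 13.4, 12.2, 28.0 and 0.861 CPM in AMLN-fed TSP1ΔPf4 mice, a wide spread within the group. It was -2.09 log2 without LF-fed TSP1F/F replicate 1 and -0.05 log2 without LF-fed TSP1ΔPf4 replicate 1.

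Of the chemokine genes and receptors, 9 of 48 are in both tables and tested. Cxcl5 was opposite and the other 8 were raised in both genotypes, 5 of them less, 1 equally and 2 more in TSP1ΔPf4 mice, beside 72.4% of all raised genes that rose less. Ccl2, which attracts monocytes, had 0.574, 1.98, 1.71 and 0.263 CPM in LF-fed and 2.63, 5.39, 9.33 and 16.1 CPM in AMLN-fed TSP1F/F mice. The values were 0, 1.01, 0.234 and 0 CPM in LF-fed and 1.17, 1.40, 1.18 and 2.50 CPM in AMLN-fed TSP1ΔPf4 mice. The diets were apart in both genotypes and AMLN-fed TSP1ΔPf4 mice were below all AMLN-fed TSP1F/F mice, yet the difference of responses was -0.62 log2 (95% interval -3.33 to 2.09), with a genotype difference of -1.80 log2 on LF and -2.42 log2 on AMLN. Ccr2, the receptor of Ccl2, differed by -1.46 log2. Cxcl9 and Cxcl10, induced by interferon gamma, had differences of 0.26 and 0.16 log2, with 95% intervals of -1.24 to 1.75 and -0.96 to 1.29 log2.

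Other genes that the study names were also raised in both genotypes. Plek, which encodes the platelet and leukocyte protein pleckstrin, differed by -1.73 log2 (95% interval -3.04 to -0.41), and was the only gene of the platelet and megakaryocyte list in both tables. Cd68 and Adgre1, both of macrophages, differed by -0.84 and -0.98 log2, and the plasma protein Orm2, whose reads may be shared with other orosomucoids, by -0.92 log2. None of these differences of responses was called by edgeR or DESeq2. On the AMLN diet alone edgeR called Plek lower in TSP1ΔPf4 mice, by -1.56 log2, as 1 of the 54 genes (7.36%) called there. On the LF diet Plek differed by 0.17 log2 and was not called. Single mice moved the differences of responses. Adgre1 ran from -2.01 log2 without LF-fed TSP1F/F replicate 3, which held 19.2 CPM against 3.48 to 3.86 in the other 3 mice, to -0.47 log2 without AMLN-fed TSP1F/F replicate 4. Orm2 ran from -1.73 log2 without LF-fed TSP1F/F replicate 1 to -0.47 log2 without AMLN-fed TSP1F/F replicate 1, and Cd68 from -1.18 log2 without LF-fed TSP1F/F replicate 3 to -0.37 log2 without LF-fed TSP1ΔPf4 replicate 2. Ccr2 ran from -1.80 to -0.65 log2, the end nearer 0 without LF-fed TSP1ΔPf4 replicate 4, and Ccl2 turned to 1.41 log2 without LF-fed TSP1ΔPf4 replicate 2.

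**Figure D4:**
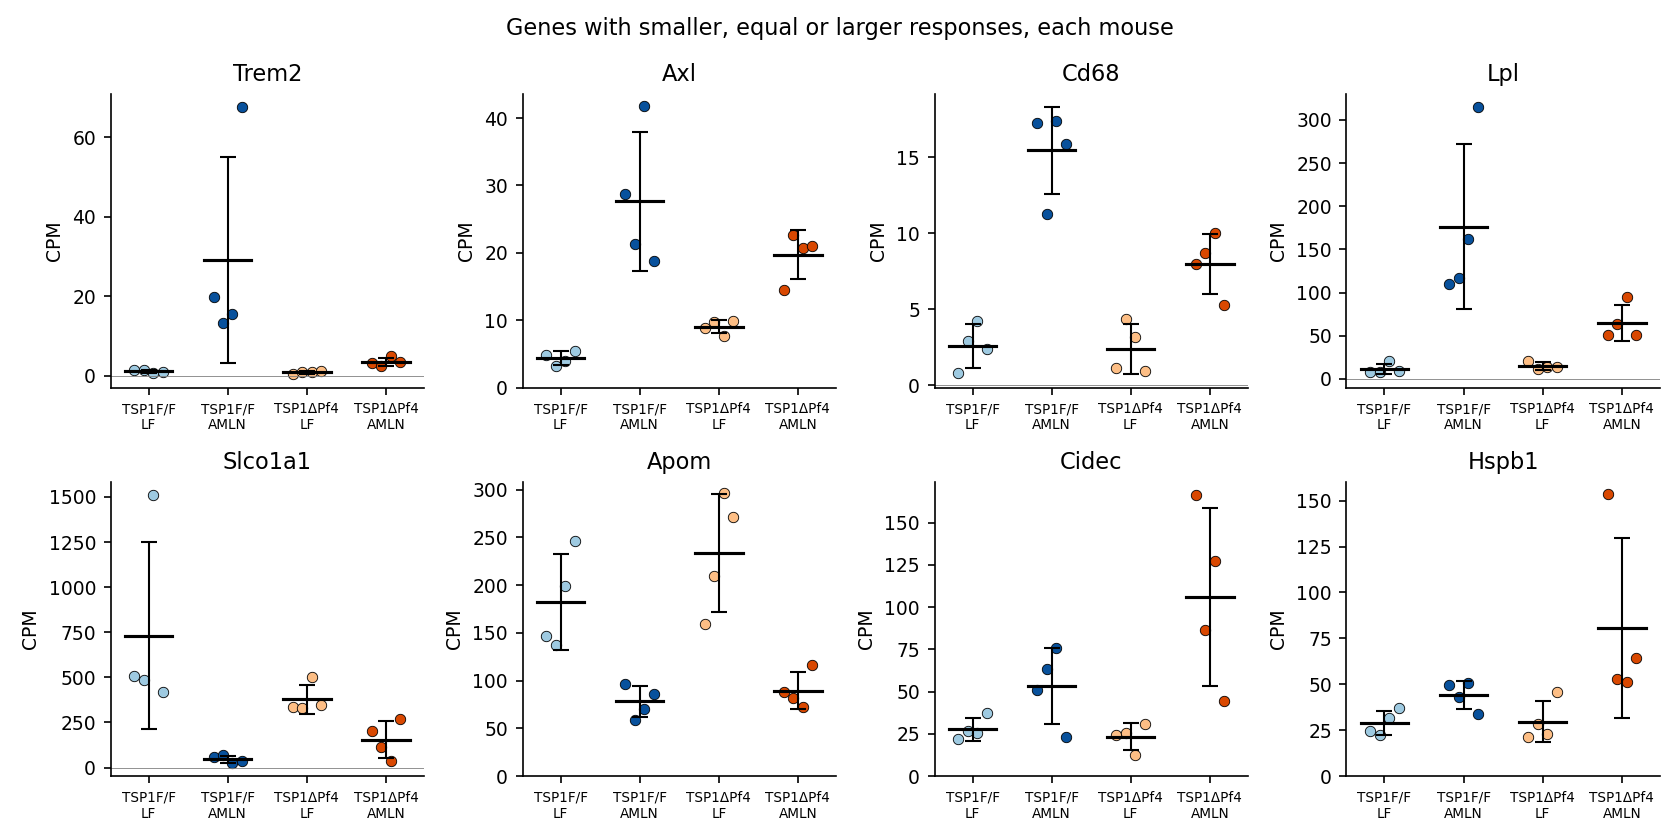
CPM of 8 genes moved the same way in both genotypes in each mouse (points), with the mean (line) and SD (bars) of 4 mice in each group, on a linear axis that differs between panels. Trem2, Axl, Cd68 and Lpl rose less and Slco1a1 fell less in TSP1ΔPf4 mice, Apom fell equally, and Cidec and Hspb1 rose more.

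Lpl, lipoprotein lipase, which frees fatty acids from circulating fat, had 8.40, 8.31, 20.8 and 8.93 CPM in LF-fed and 110, 117, 162 and 315 CPM in AMLN-fed TSP1F/F mice. The level was 21.3, 11.0, 13.8 and 14.1 CPM in LF-fed and 51.3, 63.1, 94.5 and 50.3 CPM in AMLN-fed TSP1ΔPf4 mice. The diets were apart in both genotypes, and the genotypes were apart on the AMLN diet. The responses differed by -1.81 log2 (standard error 0.54). The 8 genes of lipid droplets and lipid uptake did not share 1 direction. Lpl and the fatty acid binding protein Fabp4 rose less in TSP1ΔPf4 mice, by -1.81 and -1.43 log2, the droplet coat gene Plin4 differed by -0.10 log2, and Cidec, which drives droplet fusion, rose more, by 1.24 log2.

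The male-biased hepatocyte genes that depend on growth hormone were all lowered, 11 of 11 tested, and 7 of them fell less in TSP1ΔPf4 mice, 2 equally and 2 more. Of all genes lowered in both genotypes, 39.0% fell less on library totals, 78.5% with TMM and 75.8% with RLE factors. Slco1a1, an organic anion transporter, had 508, 486, 1509 and 421 CPM in LF-fed and 59.8, 67.6, 26.9 and 34.5 CPM in AMLN-fed TSP1F/F mice. It stood at 338, 328, 500.5 and 348 CPM in LF-fed and 201, 113, 35.9 and 267 CPM in AMLN-fed TSP1ΔPf4 mice. The diets were apart in both genotypes, and the genotypes overlapped on each. Its responses thus differed by 2.66 log2 (standard error 0.72, edgeR quasi-likelihood adjusted p = 0.0558) and 2.03 log2 without LF-fed TSP1F/F replicate 3. Hsd3b5, a steroid dehydrogenase, fell from 152 ± 155 to 1.40 ± 1.32 CPM in TSP1F/F and from 85.2 ± 39.6 to 8.54 ± 11.7 CPM in TSP1ΔPf4 mice on average, a difference of 3.43 log2. The SD of the LF-fed TSP1F/F mice exceeded their mean, and the difference was not called. Without LF-fed TSP1F/F replicate 3, 5 of the 11 differences of the list lay below 0, against 3 with all mice. The major urinary protein genes Mup3 and Mup7, which are near-identical copies whose reads may be shared, differed by -0.01 and 0.46 log2.

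Responses that are equal within a stated error were few, because the intervals were wide, with a median width of 2.62 log2. The 95% interval of the difference lay within 1 log2 of 0 for 77 genes (10.5%), 55 lowered and 22 raised in both genotypes, and only 3 of these had responses over 1 log2 in both. The count of 77 fell to 19 with TMM factors, 26 with RLE factors and 27 with the replicate block. Apom, an apolipoprotein that carries sphingosine 1-phosphate, stood at 183 ± 50.5 and 78.2 ± 16.6 CPM in TSP1F/F and at 234 ± 61.9 and 89.5 ± 19.0 CPM in TSP1ΔPf4 mice (SD, n = 4 mice each, LF then AMLN). Its responses of -1.22 and -1.39 log2 differed by -0.16 log2 (95% interval -0.96 to 0.63). Serpina1c, an antitrypsin gene with near-identical copies, differed by 0.06 log2 (95% interval -0.86 to 0.98), and Gstp-ps, a pseudogene whose reads may come from Gstp1, by -0.13 log2 (95% interval -0.99 to 0.73). With TMM, RLE or DESeq2 factors the sign of the Apom and Gstp-ps differences turned, staying under 0.26 log2.

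Larger responses in TSP1ΔPf4 mice were found for 69 genes, and in 14 of them no LF-fed TSP1ΔPf4 mouse had over 3 counts, so their folds have no measured base. Tlr6, a receptor for bacterial lipopeptides, was such a gene, with 0 counts in all LF-fed and 0.223 to 1.15 CPM in AMLN-fed TSP1ΔPf4 mice, at least 4.17-fold higher on the AMLN diet. Cidec had 21.7, 26.7, 25.2 and 37.3 CPM in LF-fed and 50.7, 63.1, 75.9 and 23.1 CPM in AMLN-fed TSP1F/F mice. The values were 24.5, 25.7, 12.2 and 31.0 CPM in LF-fed and 166, 86.5, 127 and 44.3 CPM in AMLN-fed TSP1ΔPf4 mice. The diets overlapped in TSP1F/F and were apart in TSP1ΔPf4 mice, and the AMLN-fed genotypes overlapped. The edgeR quasi-likelihood adjusted p of the difference was 0.306. Tstd1, a sulfurtransferase, fell more, by -1.66 against -0.68 log2. Hcar2, the niacin receptor, and the noncoding Gm19619 rose more, by 2.36 and 1.08 log2, and Hspb1, a small heat shock protein, by 0.82 log2, or 0.31 log2 without AMLN-fed TSP1ΔPf4 replicate 1, which held 153 CPM.

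**Figure D5:**
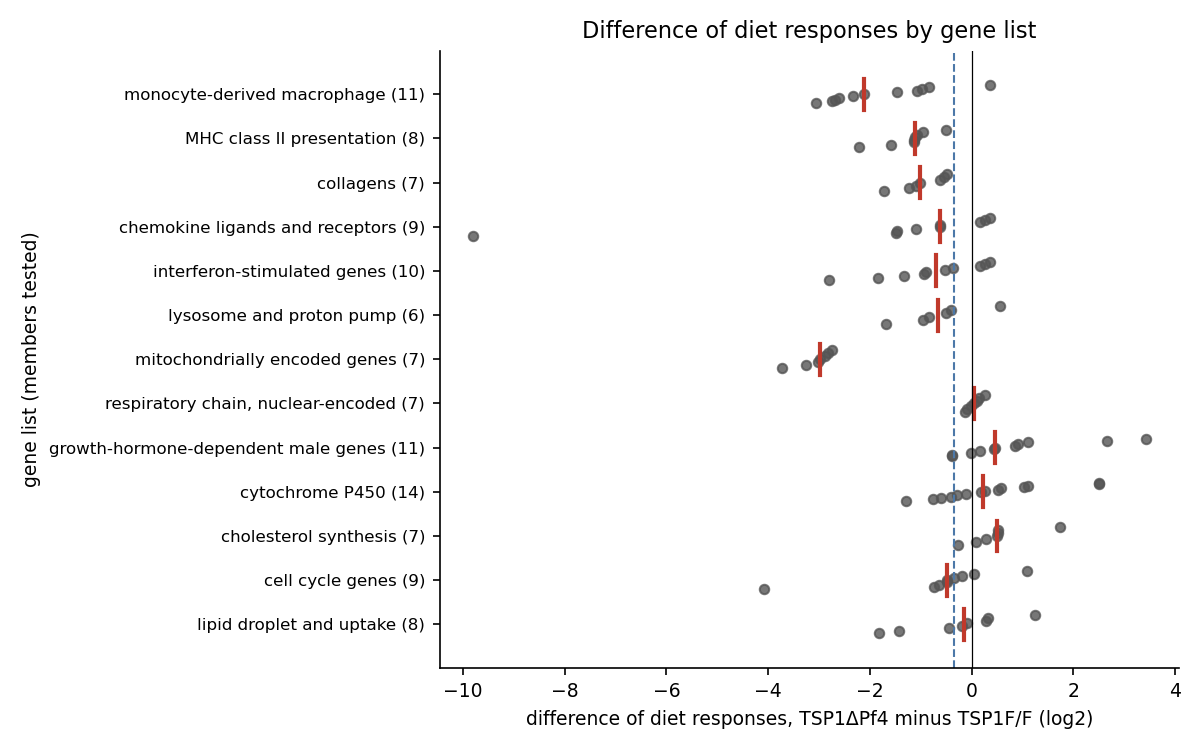
Each point is 1 gene, placed by its difference of diet responses (TSP1ΔPf4 minus TSP1F/F, log2), in 13 gene lists, with the list's median as a red bar and the median of all 734 genes, -0.34, as a dashed line. Mitochondrially encoded genes lie at -3.74 to -2.74, macrophage, MHC class II and collagen genes mostly below -0.34, and nuclear respiratory chain genes near 0. The chemokine point near -9.80 is Cxcl5, which had 0 counts in AMLN-fed TSP1ΔPf4 mice.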

How the data were processed

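Liver RNA of 16 mice was sequenced by the authors as paired reads of 150 bases and aligned to mm10 with STAR 2.7.8a per the paper, while the submitters' processing notes name HISAT2. The counting program, annotation release and strand setting are not given in the sources used here. The 2 deposited tables hold counts per gene, a signal (each count divided by 1 size factor per library, made by the authors) and FPKM, which the authors made from counts, gene length and a library total. They also hold the authors' mean of the signal and their DESeq2 log2 fold changes and p-values. Of these, only the unadjusted p-values were read, to test how genes were selected. All 48 columns of single mice were matched to a sample (0 unmatched). Of the 752 shared genes, 94.7% have the same coordinates in GENCODE M21.

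Library totals were computed from counts, gene length and FPKM (median 21485268), and CPM are counts per 1000000 of them. All 16 libraries entered 1 edgeR 4.0.16 quasi-likelihood fit (R 4.3.3, limma 3.58.1, prior count 0.125, filterByExpr) with the library totals as offsets, and p-values were adjusted over the 734 genes tested. Calls needed an adjusted p under 0.05 and a size over 0.25 log2. The spread was estimated from selected genes. Replicate numbers are not stated to be pairs, and p-values measure the spread between mice. Alternatives were other scalings and filters, robust dispersion, DESeq2 1.42.0, a replicate block, other thresholds, each mouse left out, and, chosen after seeing the data, limma's voom with group weights. The test was also tried on simulated counts. These were drawn without the authors' selection of genes on the diet, so that trial does not cover the opposite genes.

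The genes and lists were chosen with earlier results of these data known. Named genes are all called genes, up to 10 and 6 opposite genes of each kind, 8 with a smaller and 6 with a larger response by smallest p, up to 6 equal genes with the narrowest interval, genes the study names, and members of a described list. The choice of any further opposite gene followed from its values. The 95% intervals come from the fit, and floors (3 counts in a group's smallest library) cover counting error only.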

Additional observations from a re-analysis of the deposited data

Results flagged for a closer look

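Among 40 named genes, 160 groups of 4 mice were examined for a mouse far from the other 3, and 18 were found, where chance gives about 1 in 20. They are given in CPM. LF-fed TSP1ΔPf4 replicate 3 was the highest for mt-Nd3 (172), mt-Th (26.6) and Slco1a1 (500.5). AMLN-fed TSP1F/F replicate 2 was the highest for mt-Th (33.8) and replicate 4 for Trem2 (67.6). LF-fed TSP1F/F replicate 3 was the highest for Slco1a1 (1509), Lpl (20.8), Adgre1 (19.2), Lgals3 (5.02) and Cxcl5 (0.221) and the lowest for Tlr6 (0). LF-fed TSP1F/F replicate 1 was the highest for Orm2 (25.6) and Col1a1 (3.97), and replicate 2 for Fosb (0.750). AMLN-fed TSP1ΔPf4 replicate 1 was the highest for Hspb1 (153), Msln (3.74) and Gpm6a (2.702), and replicate 3 the lowest for Hcar2 (0.733). The part of any of these in the results was not tested beyond the fits without each mouse.

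The edgeR quasi-likelihood test of the difference called mt-Nd3 (-2.74 log2), Neat1 (-2.81 log2) and mt-Th (-3.74 log2), at adjusted p-values of 0.0455 to 0.0495. All are opposite genes, so the test is not independent of how they were selected. They were not called by limma's voom with group weights, nor in several fits that left out a single mouse.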

How the results depend on the processing

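All 47 opposite genes kept their directions under every setting in which they were tested (41 under the stricter filter), which their selection in each genotype favours. The calls did not keep. Against 3 calls (3 below 0, 0 above), the counts of calls, below 0 and above 0 were 8, 6 and 2 with the authors' size factors, 15, 7 and 8 with TMM, 18, 7 and 11 with RLE, 44, 32 and 12 with DESeq2, 7, 6 and 1 with robust dispersion, 53, 44 and 9 at an adjusted p under 0.1, and 110, 94 and 16 at an unadjusted p under 0.05. The stricter filter gave 4 calls, 1 above 0, and voom with group weights gave 0 calls, 0 below 0. With no filter there were 3. Leaving out 1 mouse gave 0 to 24 calls, 0 to 20 below 0 and 0 to 4 above. The cause was not tested.

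The 11 genes lowered in TSP1F/F and raised in TSP1ΔPf4 mice became 17 with TMM and 20 with RLE or DESeq2. Intervals within 1 log2, 77, became 19 with TMM, 26 with RLE, 27 with the replicate block and 44 to 90 without 1 mouse. Equal and larger responses became 369 and 34 when equal meant within 0.5 log2. Leaving out 1 mouse gave 354 to 484 smaller, 149 to 234 equal and 55 to 109 larger responses. AMLN genotype calls, 54, became 30 with TMM, 34 with RLE, 30 with voom and 15 to 61 without 1 mouse, and LF calls became 4 with DESeq2.

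The median difference turned to 0.050, 0.0116 and 0.0112 with TMM, RLE and DESeq2, as these centre the selected genes. With these 3, Apom turned to 0.25, 0.18 and 0.18 and Gstp-ps to 0.21, 0.15 and 0.15, and Gstp-ps to 0.0011 with voom. Ccl2 turned to 0.34 with the replicate block and 0.64 with voom. Without 1 mouse, Ccl2 ran from -1.04 to 1.41, Gstp-ps from -0.32 to 0.11 and Serpina1c from -0.15 to 0.25. Same-numbered mice did not deviate together (correlations -0.367 to 0.322), so the numbers are not taken as pairs. With the replicate block 1 gene, Neat1, was called (1 below 0).

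Counting depth limits genes under about 1 CPM, whose intervals spanned several log2.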

Other observations

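Cholesterol synthesis genes, which cells turn down when sterol is plentiful, were lowered by the AMLN diet in both genotypes for 6 of the 7 tested, Cyp51, Idi1, Insig1, Msmo1, Stard4 and Tm7sf2. Idi1, isopentenyl diphosphate isomerase, had the largest difference of responses of the 7, 1.74 log2 (standard error 0.88). It stood at 14.8 ± 8.91 and 2.01 ± 1.40 CPM in TSP1F/F and at 4.20 ± 1.34 and 1.91 ± 0.691 CPM in TSP1ΔPf4 mice (SD, n = 4 mice each, LF then AMLN). The genotype difference was -0.07 log2 on the AMLN diet and -1.81 log2 on the LF diet, and called on neither. None of the 7 had an unadjusted p under 0.05 for the difference.

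Among targets of PPAR alpha, the nuclear receptor that drives fatty acid oxidation, Cyp4a14, a fatty acid hydroxylase, was lowered by -1.48 log2 in TSP1F/F and by -0.44 log2 in TSP1ΔPf4 mice. On the AMLN diet it was higher in TSP1ΔPf4 mice by 1.47 log2 (edgeR quasi-likelihood adjusted p = 0.0243). Acot3, an acyl-CoA thioesterase of peroxisomes, was higher in TSP1ΔPf4 mice on the AMLN diet by 1.68 log2 (edgeR quasi-likelihood adjusted p = 0.0455), and by 1.36 log2 on the LF diet, with a difference of responses of 0.32 log2. All 4 tested genes of this list had a difference of responses above 0, also with the other scalings, but 1 lay below 0 without LF-fed TSP1F/F replicate 3 or 4.

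Acute phase genes went both ways in the direction of the diet. Orm3 and Lcn2 rose in both genotypes and less in TSP1ΔPf4 mice, by -1.18 and -1.84 log2, while Hamp, which encodes the iron hormone hepcidin, fell in both, by -1.15 log2 in TSP1F/F and -2.46 log2 in TSP1ΔPf4 mice. The cell cycle genes in both tables, 9 of 42, rose in both genotypes at low levels. Ccnb2, a mitotic cyclin, reached 1.79 ± 0.332 CPM in AMLN-fed TSP1F/F and 1.35 ± 0.732 CPM in AMLN-fed TSP1ΔPf4 mice (SD, n = 4), with a difference of responses of -0.74 log2 (95% interval -3.37 to 1.89).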
